A study of Mus musculus with 15 samples.

Results

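Messenger RNA of 10 genes of fat cells was followed in fibroblasts made to express 1 of 4 C/EBP transcription factors. The genes were Lpl, Pparg, Fabp4, Cd36, Cfd, Dgat1, Scd1, Adipoq, Lipe and Abcd2, and every probe set of the array that the platform annotation gives to 1 of these symbols alone was read. The genes were chosen with earlier results of these data known. The rule that took their probe sets used no measured value. It found 14 probe sets for 9 of the 10 genes, out of 12422 probe sets in all, and no probe set named Cfd, the complement factor adipsin, alone.

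The cells were NIH 3T3, an immortal mouse fibroblast line. They carried a plasmid with a metallothionein promoter, which zinc switches on, in front of the human cDNA of C/EBPα, of C/EBPβ, of C/EBPδ or of C/EBPε. In the fifth group, called vector here, the plasmid was empty. The transfectants were G418-resistant and polyclonal, and cells of all 5 groups, vector included, had received ZnSO4 for 16 h before total RNA was taken. Each group had 3 Affymetrix MG_74Av2 arrays. The labels call these triplicate clones, and the sources used here do not settle whether each had its own transfection. The p-values cover only the variation among these arrays.

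C/EBPs are bZIP transcription factors. In textbook accounts of fat cell formation C/EBPβ and C/EBPδ act early, and C/EBPα and the nuclear receptor PPARγ, product of Pparg, then maintain each other's expression and switch on the genes of the mature fat cell. Those genes take up fatty acids (Lpl, Cd36, Fabp4), store them (Dgat1, Scd1), release them (Lipe) and encode secreted proteins (Adipoq, Cfd). PPARγ binds DNA beside the receptor RXR.

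Array signals are linear, in arbitrary units, after each array was scaled to a common median. They can be compared between arrays for 1 probe set, not between probe sets or genes. Values under 189.652 units, the pooled 20th percentile, were raised to that floor before log2 was taken, and a probe set entered the test where 3 or more of the 15 arrays lay above 1092.06 units, the pooled median. A call is an adjusted p under 0.05 in a limma fit over all 6963 probe sets tested (5338 genes), and the brightest tested probe set stood for a gene. On that rule 7 member probe sets of 5 genes were tested: Lpl, Scd1, Dgat1, Pparg and Abcd2. Pparg and Abcd2 exceeded the filter on the C/EBPα arrays alone, so they could be tested only because they were high there, and the counts over the tested members below are descriptions and no support for a shift of the whole group. Lpl's dimmer probe set exceeded it on the C/EBPα arrays and 1 C/EBPδ array, and Scd1 and Dgat1 on all 15 arrays.

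The arrays resembled each other closely, with a correlation of log2 signal of 0.958 to 0.973 in pairs of the same group and 0.940 to 0.974 in pairs of different groups. Of the 12 fibroblast markers listed, 11 had a probe set and 10 exceeded the filter. Of 10 markers of mature fat cells, 8 had a probe set and only Lep, the leptin gene, exceeded the filter, at 3322 to 5606 units over all arrays. The introduced cDNAs were human. Mouse probe sets therefore do not check their induction; those of Cebpb and Cebpd exceeded the filter and were not called against vector in any group.

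Against vector, 4 of the 5 tested members were higher in C/EBPα cells (Lpl, Pparg, Abcd2 and Dgat1), where 7.46% of all tested genes were called higher. In C/EBPβ cells Lpl and Scd1 were called higher, against 5.34% of all genes. In C/EBPδ cells Lpl alone was called, against 0.356%, and in C/EBPε cells Lpl, Dgat1 and Abcd2 were, against 9.89%. None of the 5 tested members was called lower in any group (limma), and none was lower at an unadjusted p under 0.05. The other members with a probe set, Fabp4, Cd36, Adipoq and Lipe, did not reach the filter.

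**Figure D1:**
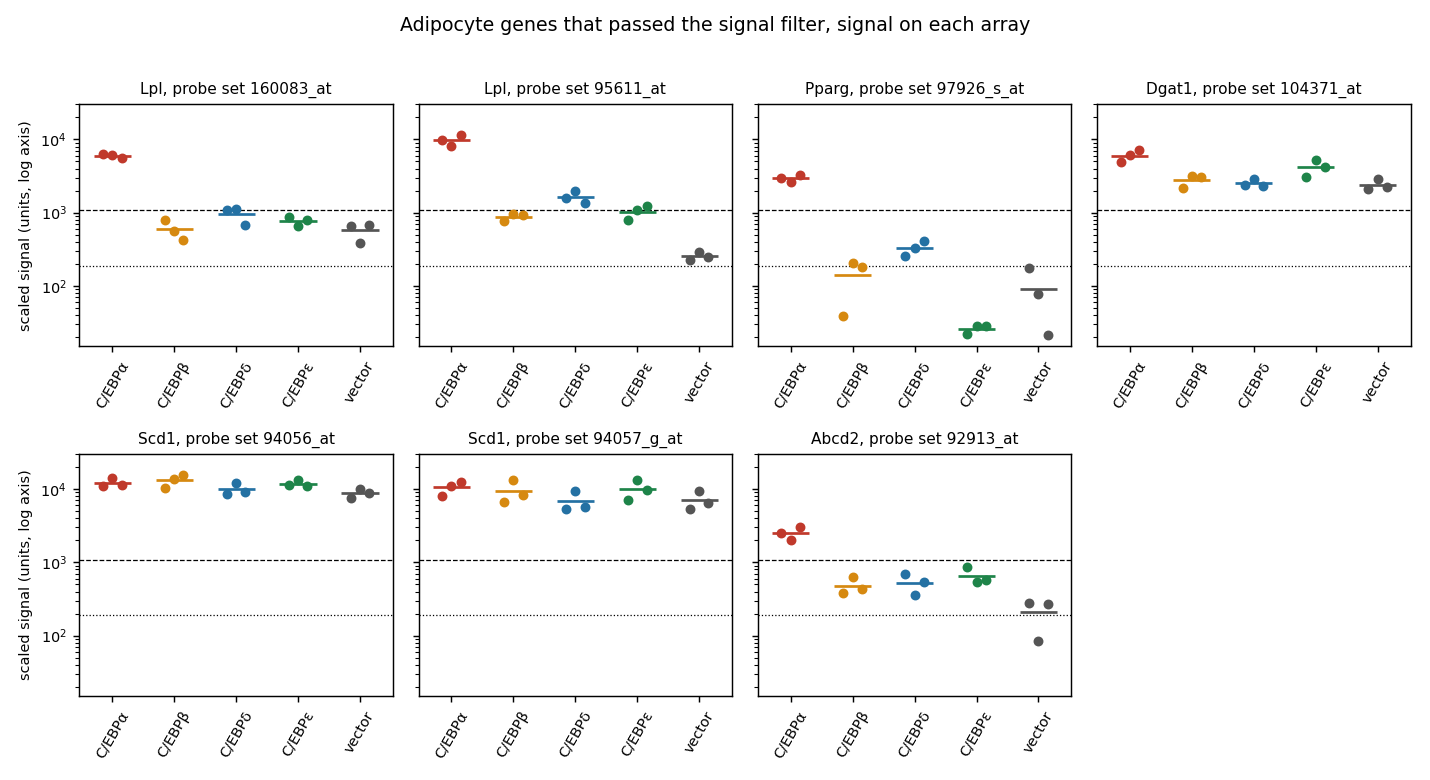
Scaled signal (log axis, arbitrary units) of the 7 tested member probe sets on each array, with groups from C/EBPα at the left to vector at the right. Points are arrays and bars are group means. The C/EBPα arrays stand above all others for Lpl, Pparg and Abcd2, while the groups lie close together for Scd1.

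Lpl encodes lipoprotein lipase, which frees fatty acids from the triglycerides of lipoproteins for uptake by the cell. Its brighter probe set, 95611_at, read 9946, 8228 and 11343 units on the C/EBPα arrays. It read 781, 948 and 925 on the C/EBPβ arrays, 1594, 1998 and 1351 on the C/EBPδ arrays, and 783, 1075 and 1218 on the C/EBPε arrays, against 223, 289 and 249 on the vector arrays. Every array of every C/EBP lay above every vector array, and the C/EBPα arrays lay above all others. Group means were 9839 ± 1560 in C/EBPα, 885 ± 90.7 in C/EBPβ, 1648 ± 327 in C/EBPδ, 1025 ± 222 in C/EBPε and 253.9 ± 33.4 in vector (SD, n = 3 each).

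In the fit, Lpl rose 38.6-fold in C/EBPα cells (log2 difference 5.27, SE 0.23, adjusted p = 1.34e-10). It rose 6.44-fold in C/EBPδ cells (log2 2.69, adjusted p = 1.27e-05). The rises were 3.99-fold in C/EBPε cells (adjusted p = 1.08e-05) and 3.49-fold in C/EBPβ cells (log2 1.80, adjusted p = 9.76e-05). Lpl was the member called against vector under all 4 factors. The vector arrays lay close above the floor, so the sizes depend on it. With the floor at the 40th percentile the log2 differences of Lpl were 3.86 in C/EBPα and 1.28 in C/EBPδ, both still called, and the C/EBPβ and C/EBPε calls were lost (adjusted p = 0.252 and 0.0554). The C/EBPβ call was also lost with only C/EBPβ and vector in the fit (adjusted p = 0.0509).

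The order of Lpl levels was C/EBPα, C/EBPδ, C/EBPε, C/EBPβ and vector. C/EBPα stood above C/EBPδ by 2.58 on the log2 scale (adjusted p = 8.35e-07), above C/EBPε by 9.67-fold (adjusted p = 1.66e-07) and above C/EBPβ by 11.1-fold (adjusted p = 6.92e-08). C/EBPδ and C/EBPε arrays did not overlap, but their difference of 0.69 on the log2 scale was not called (adjusted p = 0.0701). Under each of the 3 other scalings, with the floor at the 40th percentile and without the trend it was (adjusted p-values from 0.0280 to 0.0499). The neighbours C/EBPε and C/EBPβ did not differ beyond their spread (adjusted p = 0.777). C/EBPβ was lower than C/EBPδ (log2 -0.88, adjusted p = 0.0305). That call was lost without C/EBPα replicate 1, any 1 C/EBPβ array, or C/EBPδ replicate 1 or 2, with adjusted p-values from 0.0553 to 0.153. It was also lost with the filter at the 75th percentile (0.0706) and with only these 2 groups in the fit (0.0571).

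The dimmer Lpl probe set, 160083_at, was called in C/EBPα cells and not under the other factors. It read 6244, 6139 and 5515 units in C/EBPα, 788, 568 and 420 in C/EBPβ, 1077, 1110 and 684 in C/EBPδ, 879, 653 and 799 in C/EBPε, and 650, 390 and 678 in vector. The C/EBPα arrays again stood apart, and the C/EBPδ arrays lay above all vector arrays, but C/EBPβ and C/EBPε arrays overlapped the vector arrays. This probe set rose 10.7-fold in C/EBPα cells (log2 3.42, SE 0.29, adjusted p = 4.14e-07). Its log2 difference was 0.04 in C/EBPβ (adjusted p = 0.955), 0.75 in C/EBPδ (adjusted p = 0.630) and 0.47 in C/EBPε (adjusted p = 0.310). The calls of Lpl in C/EBPβ, C/EBPδ and C/EBPε cells therefore rest on 1 of its 2 probe sets.

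The gap between these probe sets moved with the group. On the log2 scale 160083_at minus 95611_at averaged -0.71 in C/EBPα, -0.62 in C/EBPβ, -0.80 in C/EBPδ and -0.39 in C/EBPε, against 1.14 in vector. Relative to vector the gap had changed by -1.85, -1.76, -1.94 and -1.53 in the same order of factors, and in each case no array of the C/EBP overlapped a vector array. An exact two-sided permutation test gave p = 0.1 for each of these 4 comparisons, the smallest that 3 against 3 arrays allow. All 4 use the same 3 vector arrays and are not independent of each other. Over the 15 arrays the probe sets correlated at r = 0.89, a description in which the C/EBPα arrays carry most of the range. Why they differ was not tested.

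**Figure D2:**
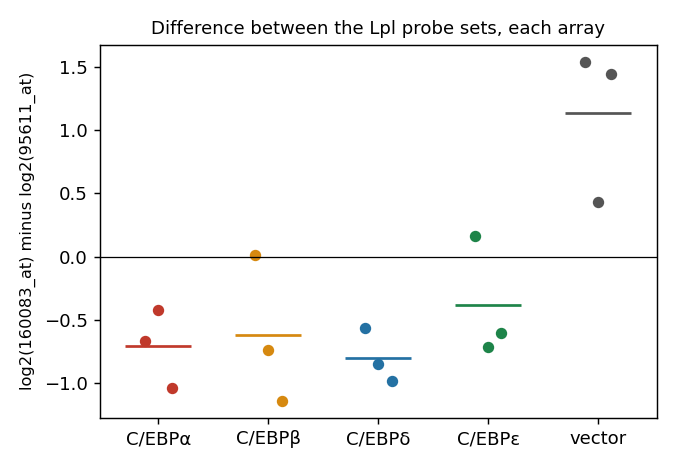
Log2 signal of Lpl probe set 160083_at minus that of 95611_at on each array, by group with vector at the right. Points are arrays and bars are group means. The vector arrays, with a mean of 1.14, lie above all arrays of the 4 C/EBPs, whose means run from -0.80 to -0.39.

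Pparg encodes PPARγ, the receptor required for fat cell formation. It was measured by 1 probe set, 97926_s_at, of a class whose probes may match more than 1 transcript. It read 2978, 2662 and 3310 units on the C/EBPα arrays, 39.3, 207.7 and 180.6 on the C/EBPβ arrays, and 258.9, 325.7 and 409.1 on the C/EBPδ arrays. It read 22.4, 28.1 and 28.3 on the C/EBPε arrays and 174.8, 77.8 and 21.3 on the vector arrays. All vector and C/EBPε arrays and 2 of the C/EBPβ arrays lay under the floor, and all C/EBPα and C/EBPδ arrays lay above it.

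With vector at the floor, Pparg was at least 15.7-fold higher in C/EBPα cells (adjusted p = 0.000188). It was also higher in C/EBPα than in C/EBPδ (9.13-fold, adjusted p = 0.00226), at least 15.7-fold higher than in C/EBPε (adjusted p = 0.00124) and higher than in C/EBPβ (adjusted p = 0.000662), where no fold is given because 2 of the 3 C/EBPβ arrays were at the floor. With the floor at the 40th percentile each of these 4 differences was 2.15 on the log2 scale. In C/EBPδ cells the signal was at least 1.72-fold that of vector and the arrays did not overlap, yet the difference was not called (adjusted p = 0.941, SE 0.60 on the log2 scale), and without the trend in the fit it was (adjusted p = 0.0445). The C/EBPδ arrays also lay above all C/EBPβ and C/EBPε arrays, differences that were not called either (adjusted p = 0.599 and 0.477). Both were called with no filter (0.0184 and 0.00869) and without the trend (0.0131 and 0.00574). C/EBPβ and vector cannot be compared, since all but 1 of their arrays lay under the floor, nor can C/EBPε and vector, where all did. With no floor, the C/EBPα call against vector was lost (adjusted p = 0.0619).

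Promoter sequence of Pparg is shown because it was the regulator among the members and rose with Lpl in C/EBPα cells. RefSeq windows of 250 bases before to 50 after a start (GRCm38.p6) were held for 5 of the 10 members, in 8 windows. The searched motifs were TTGCGCAA and its looser form TTNNGNAA, which are bound by C/EBPs, and AGGTCA, alone and as a direct repeat with 1 base between its copies, which PPAR with RXR binds. Each looser form also matches wherever the stricter one does, and both strands were read. The 2 windows below lie on the + strand, with matches in capitals.
Pparg window 1, chr6:115360894-115361193: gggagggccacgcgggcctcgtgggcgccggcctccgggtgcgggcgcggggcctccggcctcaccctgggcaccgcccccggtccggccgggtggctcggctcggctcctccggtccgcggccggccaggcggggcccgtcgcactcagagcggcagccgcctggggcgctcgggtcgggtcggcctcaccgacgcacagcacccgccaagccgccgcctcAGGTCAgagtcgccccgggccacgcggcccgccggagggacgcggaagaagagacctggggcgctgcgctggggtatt
Pparg window 3, chr6:115421816-115422115: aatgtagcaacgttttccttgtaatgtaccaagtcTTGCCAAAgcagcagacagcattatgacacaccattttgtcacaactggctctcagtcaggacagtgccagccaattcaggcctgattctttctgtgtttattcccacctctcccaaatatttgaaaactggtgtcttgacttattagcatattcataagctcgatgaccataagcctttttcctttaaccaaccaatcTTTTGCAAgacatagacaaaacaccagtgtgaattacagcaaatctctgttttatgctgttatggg
Window 1 holds 1 AGGTCA, its first base 28 bases before the start. Window 2, at chr6:115362099-115362398, holds 1 AGGTCA 9 bases before its start. Window 3 holds TTNNGNAA 16 bases before the start, and again 215 bases before it on the other strand. TTNNGNAA is found in 40.7% of the 32851 windows of the table and AGGTCA in 16.3%, while TTGCGCAA (0.183%) and the AGGTCA repeat (0.0396%) are rare, and no member window holds either. The Cd36 window has 1 TTNNGNAA and 1 AGGTCA, the Adipoq window 1 TTNNGNAA, and the windows of Cfd and Lipe have none. These matches describe letters in a window and do not show binding.

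Abcd2 encodes a transporter that carries very long-chain fatty acids into peroxisomes. Its probe set, 92913_at, read 2531, 2051 and 3020 units in C/EBPα, 384, 622 and 432 in C/EBPβ, 691, 355 and 535 in C/EBPδ, and 865, 534 and 570 in C/EBPε, against 283, 85 and 268 in vector. Every C/EBP array lay above every vector array, and the C/EBPα arrays lay above all others. Abcd2 rose 10.3-fold in C/EBPα cells (log2 3.36, SE 0.40, adjusted p = 1.93e-05) and 2.64-fold in C/EBPε cells (log2 1.40, adjusted p = 0.0244). One vector array lay under the floor, and with the floor at the 40th percentile the C/EBPα difference was 1.90 on the log2 scale.

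The log2 differences of Abcd2 in C/EBPβ (0.95, adjusted p = 0.165) and C/EBPδ (1.06, adjusted p = 0.598) were not called. Among the factors, C/EBPα was higher than C/EBPβ by 5.34-fold (adjusted p = 0.00158), than C/EBPδ by 4.93-fold (adjusted p = 0.00122) and than C/EBPε by 3.91-fold (adjusted p = 0.0165), and C/EBPε, C/EBPδ and C/EBPβ did not differ beyond their spread. The C/EBPε call against vector was lost without vector replicate 2 (adjusted p = 0.0600), without C/EBPε replicate 1 (0.0926), with the floor at the 40th percentile (0.735) and with only these 2 groups in the fit (0.222). The difference between C/EBPα and C/EBPε was lost without any 1 C/EBPα array or without C/EBPε replicate 2 or 3, with adjusted p-values from 0.0520 to 0.127.

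Dgat1 encodes an enzyme of the last step of triglyceride synthesis. Its brighter probe set, 104371_at, read 4864, 6087 and 7133 units in C/EBPα, 2161, 3137 and 3023 in C/EBPβ, 2385, 2845 and 2309 in C/EBPδ, and 3115, 5306 and 4204 in C/EBPε, against 2131, 2862 and 2239 in vector. All C/EBPα and C/EBPε arrays lay above all vector arrays, whereas C/EBPβ and C/EBPδ arrays overlapped them. Dgat1 rose 2.49-fold in C/EBPα cells (log2 1.32, SE 0.21, adjusted p = 0.000294) and 1.72-fold in C/EBPε cells (log2 0.78, adjusted p = 0.0159).

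C/EBPα was higher than C/EBPβ (2.18-fold, adjusted p = 0.00392) and C/EBPδ (2.38-fold, adjusted p = 0.000787) in Dgat1, but its difference from C/EBPε was not called (log2 0.53, adjusted p = 0.335). C/EBPδ was lower than C/EBPε (log2 -0.72, adjusted p = 0.0421). The C/EBPε call against vector was lost without vector replicate 1 or 3 or C/EBPε replicate 2, with adjusted p-values from 0.0621 to 0.0812, and with no filter (0.0531). That between C/EBPδ and C/EBPε was lost on leaving out any one of 8 arrays: vector replicate 3, C/EBPα replicate 2, C/EBPβ replicate 3, any C/EBPδ array, and C/EBPε replicates 2 and 3 (adjusted p-values from 0.0537 to 0.173). It was also lost with no filter (0.110), without the trend (0.0637) and with only the 2 groups in the fit (0.0675). The dim second probe set, 162316_f_at, read 503, 344 and 651 units in C/EBPα and 455, 127 and 335 in vector, and did not follow the first over the 15 arrays (r = 0.076).

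Scd1 encodes a desaturase that makes monounsaturated fatty acids. Its brightest probe set, 94056_at, read 11056, 14154 and 11495 units in C/EBPα, 10464, 13880 and 15688 in C/EBPβ, 8600, 12165 and 9114 in C/EBPδ, and 11302, 13282 and 10852 in C/EBPε, against 7571, 10006 and 8791 in vector. Scd1 was bright in every group, vector included, and no group stood far from another. It was called in C/EBPβ cells (1.51-fold, log2 0.59, SE 0.17, adjusted p = 0.0423). The log2 differences were 0.48 in C/EBPα (adjusted p = 0.0821), 0.43 in C/EBPε (adjusted p = 0.106) and 0.17 in C/EBPδ (adjusted p = 0.982), none of them called. C/EBPα and C/EBPε arrays, like those of C/EBPβ, did not overlap vector arrays, and the C/EBPα difference was called under the 3 other scalings (adjusted p = 0.0190, 0.0249 and 0.0432). No pair of factors differed beyond the spread.

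The C/EBPβ call of Scd1 was lost without vector replicate 1 or 3, C/EBPα replicate 3, C/EBPβ replicate 2 or 3, C/EBPδ replicate 3 or C/EBPε replicate 3, with adjusted p-values from 0.0525 to 0.190. It was also lost with no filter (adjusted p = 0.103), without the trend (0.0691) and with only the 2 groups in the fit (0.0876). The second tested probe set, 94057_g_at, was not called in any of the 4 comparisons, with log2 differences of 0.59, 0.39, -0.05 and 0.50 in C/EBPα, C/EBPβ, C/EBPδ and C/EBPε. The last probe set, 94058_r_at, read 90.8 to 641 units over all arrays and showed no order of the groups.

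Between the factors, 4 tested members were higher in C/EBPα than in C/EBPβ (Lpl, Pparg, Abcd2 and Dgat1), where 1.35% of all tested genes were. The same 4 were higher in C/EBPα than in C/EBPδ, where 3.28% of genes were. Lpl, Pparg and Abcd2 were higher in C/EBPα than in C/EBPε, where 0.712% of genes were. Lpl was lower in C/EBPβ than in C/EBPδ, as 2.83% of genes were, and Dgat1 lower in C/EBPδ than in C/EBPε, as 4.07% were. These comparisons reuse the same C/EBPα arrays. In the F-test over the 5 groups, Lpl, Pparg, Abcd2 and Dgat1 differed and Scd1 did not (adjusted p = 0.0991), beside 16.8% of all tested genes.

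**Figure D3:**
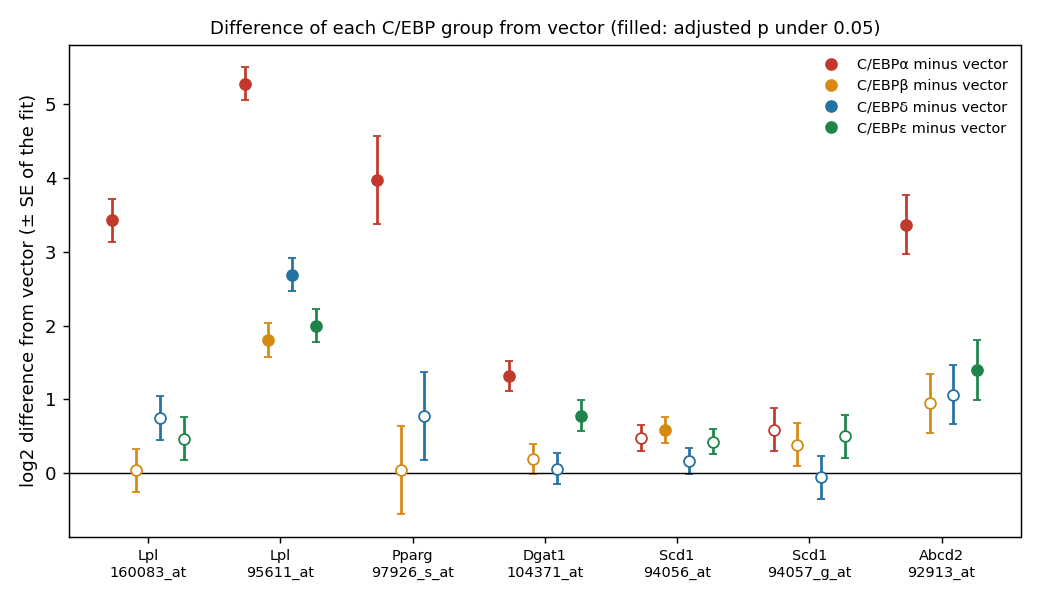
Log2 difference from vector of each tested member probe set in C/EBPα, C/EBPβ, C/EBPδ and C/EBPε, with standard errors of the fit as error bars. C/EBPα has the largest differences for Lpl (5.27 and 3.42) and Abcd2 (3.36), and at least 3.97 for Pparg, whose vector arrays are at the floor. Filled points have an adjusted p under 0.05, and Pparg in C/EBPε, at the floor in both groups, has no point.

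The other members were dim. Fabp4, which encodes the fatty acid carrier of the fat cell cytoplasm, read 266, 121 and 323 units in C/EBPα, 321, 425 and 168 in C/EBPβ, 318, 322 and 301 in C/EBPδ, and 428, 302 and 528 in C/EBPε, against 74.1, 129 and 419 in vector. Adipoq, which encodes the hormone adiponectin, read 183, 73.1 and 256 units in C/EBPα and 104, 286 and 496 in vector, and 75.2 to 436 in the other groups. In both genes the arrays of each factor overlapped the vector arrays.

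Lipe, the gene of hormone-sensitive lipase, which releases stored fat, read 412, 243 and 1033 units in C/EBPα and 370, 701 and 449 in vector, and 270 to 919 in the other groups. Cd36, the gene of a fatty acid uptake receptor, was read by probe set 93332_at. It gave 161, 645 and 162 units in C/EBPα and 84.1, 92.1 and 178 in vector, and 50.2 to 361 in the other groups. Above the floor stood 1 C/EBPα array, the C/EBPβ arrays at 213 and 341 units and the C/EBPδ array at 361. No C/EBPε or vector array did. The second Cd36 probe set, 161704_r_at, lay under the floor on all 15 arrays. A dim signal on these arrays cannot separate a low transcript level from none.

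With no filter, none of the 7 dim member probe sets (1 of them at the floor throughout) was called against vector in any group. The lowest adjusted p was 0.386 in C/EBPα, 0.842 in C/EBPβ, 0.777 in C/EBPδ and 0.305 in C/EBPε (limma). At an unadjusted p under 0.05 there was 1, the second Dgat1 probe set in C/EBPδ (log2 0.79). In that fit 7.77% of all 12422 probe sets were called in C/EBPα, 4.57% in C/EBPβ, 0.137% in C/EBPδ and 8.30% in C/EBPε. The log2 differences of the dim probe sets ran from -0.52 to 0.66 in C/EBPα cells.

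**Figure D4:**
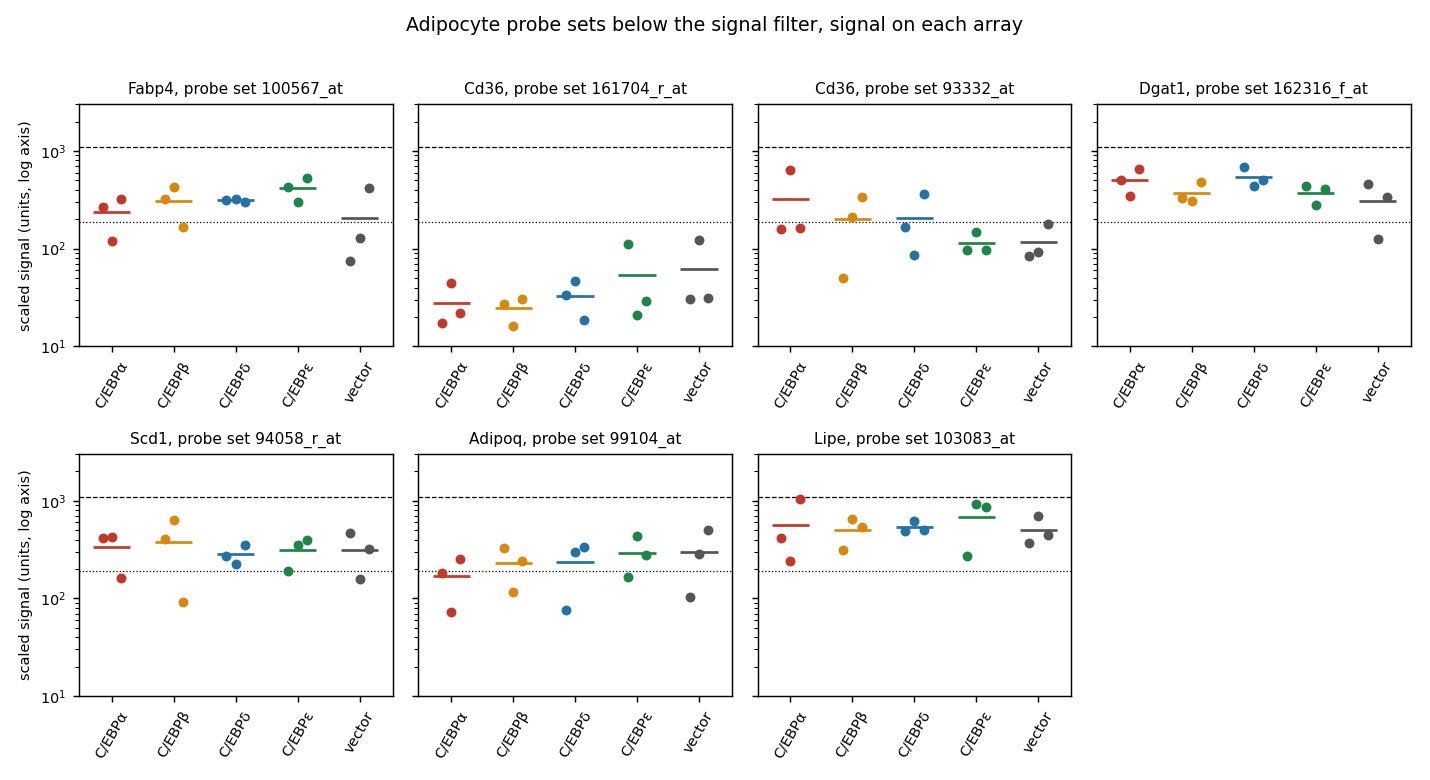
Scaled signal (log axis, arbitrary units) of the 7 member probe sets under the filter, each array as a point and group means as bars, from C/EBPα at the left to vector at the right. The dotted line is the floor of 189.652 units and the dashed line the filter of 1092.06. Each C/EBP overlaps vector in every panel other than that of Cd36 161704_r_at, which is under the floor on all arrays.

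Other genes of fat metabolism and fat cell formation were read in 9 lists that hold 73 tested genes and no member. Of these 73, 11 were called higher and 6 lower in C/EBPα (7.32% of all genes were lower), 5 and 4 in C/EBPβ (4.29% lower), and 12 and 5 in C/EBPε (6.86% lower). The shares of all tested genes called higher were 7.46% in C/EBPα, 5.34% in C/EBPβ and 9.89% in C/EBPε, and the counts of each list below are to be read beside these shares. In C/EBPδ none was called in either direction (limma), with 3 higher and 2 lower at an unadjusted p under 0.05. Over all 5338 tested genes C/EBPδ had 0% called lower, with 229 higher and 115 lower at an unadjusted p under 0.05.

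Of 12 tested transcription factors of fat cell formation other than Pparg, 1 rose and 2 fell in C/EBPα cells, 1 rose and 2 fell in C/EBPβ cells, and 1 rose and 3 fell in C/EBPε cells. In C/EBPα their median log2 difference was -0.34 beside 0.01 for all genes. The single rise among 12 is near the 7.46%, 5.34% and 9.89% of all genes called higher, and the falls stand beside 7.32%, 4.29% and 6.86% called lower. Klf4, a factor that acts early in fat cell formation, read 3028 ± 308 in C/EBPα, 5187 ± 188 in C/EBPβ and 2765 ± 66.4 in C/EBPε, against 7871 ± 1430 in vector (SD, n = 3 each). It fell in all 3, with log2 differences of -1.37 in C/EBPα (adjusted p = 1.48e-06), -0.59 in C/EBPβ (adjusted p = 0.00901) and -1.49 in C/EBPε (adjusted p = 5.95e-07). The C/EBPβ call was lost with only these 2 groups in the fit (adjusted p = 0.0561).

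Med1, a subunit of the Mediator complex that PPARγ recruits, rose 1.67-fold in C/EBPα, 1.74-fold in C/EBPβ and 1.71-fold in C/EBPε cells (adjusted p = 0.00557, 0.00555 and 0.00414), the C/EBPα call being lost without the 5 arrays numbered 1 (adjusted p = 0.0668). Cebpg, the gene of a small C/EBP without an activation domain, fell in C/EBPα (log2 -0.62, adjusted p = 0.0147) and C/EBPε (log2 -0.83, adjusted p = 0.00198), the first call being lost without C/EBPα replicate 2 (adjusted p = 0.0730). Rxra, the partner of PPARγ on DNA, fell in C/EBPε cells (log2 -0.57, adjusted p = 0.0145), a call also lost without the arrays numbered 1 (0.0913). Klf9 fell in C/EBPβ cells (log2 -0.52, adjusted p = 0.0382), a gene picked out after its value was seen.

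Of 6 tested inhibitors of fat cell formation, 3 fell in C/EBPα (median -0.55 beside 0.01), 2 in C/EBPβ and 2 in C/EBPε, and none was called higher. Ddit3, which encodes a C/EBP that blocks the others' DNA binding and rises in cell stress, read 2453 ± 726 in C/EBPα, 4539 ± 414 in C/EBPβ and 2423 ± 65.1 in C/EBPε, against 10866 ± 1577 in vector (SD, n = 3 each). The log2 differences, in the same order, were -2.18 (adjusted p = 1.92e-07), -1.25 (adjusted p = 0.000227) and -2.15 (adjusted p = 2.16e-07). Trib3, a stress-induced pseudokinase gene, fell too, with log2 differences of -2.33 in C/EBPα, -1.47 in C/EBPβ and -3.67 in C/EBPε, where 1 array lay under the floor and the difference was -2.68 with the floor at the 40th percentile. Its C/EBPβ call was lost without vector replicate 2 (adjusted p = 0.0632), without C/EBPβ replicate 3 (0.0749) and with no filter (0.0641). Dlk1, the preadipocyte factor gene, fell in C/EBPα cells to 14269 ± 1017, against 22666 ± 3819 in vector (log2 -0.66, adjusted p = 0.00859).

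Of 12 tested partners of Lpl in fatty acid and lipoprotein uptake, 4 were called higher in C/EBPα and 4 in C/EBPε (medians 0.23 and 0.57, beside 0.01 and 0.08 for all genes). In C/EBPβ none was called, and 3 were higher at an unadjusted p under 0.05, as were 748 of all 5338 tested genes. Angptl4, which encodes an inhibitor of lipoprotein lipase and is a known target of PPARs, read 2736 ± 508 in C/EBPα against 1061 ± 474 in vector, a 2.71-fold rise (log2 1.44, SE 0.31, adjusted p = 0.00416). Lmf1, which encodes a maturation factor of lipoprotein lipase, rose 1.70-fold in C/EBPα (adjusted p = 0.0166) and 1.70-fold in C/EBPε (adjusted p = 0.0167). Both Lmf1 calls were lost without vector replicate 3 (adjusted p = 0.0858 and 0.0850), the first without C/EBPα replicate 2 (0.0777), and the second without C/EBPε replicate 2 (0.0731) and with only the 2 groups in the fit (0.0512).

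Acsl4, a fatty acid activating enzyme gene, rose 1.63-fold in C/EBPα (adjusted p = 0.0220) and 1.83-fold in C/EBPε (adjusted p = 0.00573). The first was lost without vector replicate 3 or C/EBPα replicate 1 or 3 (adjusted p-values from 0.0795 to 0.113) and with no filter (0.0711). Scarb1, the gene of a receptor for high-density lipoprotein, rose 1.51-fold in C/EBPα (adjusted p = 0.0170), a call lost without vector replicate 3 (0.102) or C/EBPα replicate 3 (0.0644), and 1.66-fold in C/EBPε (adjusted p = 0.00436). Cav1, the caveolin gene, rose 1.44-fold in C/EBPε cells (adjusted p = 0.00376), a gene picked out after its value was seen.

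Of 7 tested genes of triglyceride synthesis and the droplet coat, the pathway of Dgat1, none was called in any group (limma), and at an unadjusted p under 0.05 there were 1 higher and 1 lower in C/EBPε and none elsewhere. Over all 5338 tested genes, 1019 were higher and 615 lower in C/EBPε at that threshold. Plin2, which encodes a protein coating lipid droplets, read 17070 ± 1959 in C/EBPα and 13983 ± 3148 in vector (adjusted p = 0.400). Gpam, for the first step of triglyceride synthesis, read 3129 ± 1097 and 2668 ± 557 in those groups (adjusted p = 0.652).

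Among 6 tested genes of lipolysis, Abhd5 alone was called, in C/EBPα and in C/EBPε. It encodes CGI-58, which activates the lipase that begins triglyceride breakdown. It read 15316 ± 2037 in C/EBPα and 8052 ± 1452 in C/EBPε, against 3310 ± 743 in vector (SD, n = 3 each), a 4.68-fold rise in C/EBPα (log2 2.23, SE 0.20, adjusted p = 5.27e-07) and a 2.45-fold rise in C/EBPε (adjusted p = 0.000238).

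Of 10 tested genes of fatty acid synthesis and desaturation, the pathway of Scd1, 2 rose in C/EBPα, 3 in C/EBPβ and 4 in C/EBPε (medians 0.28, 0.37 and 0.48, beside 0.01, 0.04 and 0.08 for all genes), and none was called lower. Elovl6, an enzyme gene of fatty acid elongation, read 3912 ± 805 in C/EBPα, 4663 ± 184 in C/EBPβ, 1754 ± 460 in C/EBPδ and 4281 ± 296 in C/EBPε, against 1493 ± 466 in vector. It rose 2.67-fold in C/EBPα (adjusted p = 0.000219), 3.22-fold in C/EBPβ (adjusted p = 0.000118) and 2.96-fold in C/EBPε (adjusted p = 9.88e-05). Fasn, the fatty acid synthase gene, rose 1.36-fold in C/EBPα (adjusted p = 0.0346), 1.36-fold in C/EBPβ (adjusted p = 0.0475) and by 0.59 on the log2 scale in C/EBPε (adjusted p = 0.00665). Its C/EBPα call was lost without vector replicate 1 or 3 or C/EBPα replicate 2 or 3 (adjusted p-values from 0.0732 to 0.142). Its C/EBPβ call was lost without vector replicate 1 or 3, C/EBPα replicate 1 or 3, any C/EBPβ array, C/EBPδ replicate 3 or C/EBPε replicate 1 (adjusted p-values from 0.0510 to 0.165).

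Scd2, a desaturase gene related to Scd1, rose 1.42-fold in C/EBPβ (adjusted p = 0.0334) and 1.55-fold in C/EBPε (adjusted p = 0.00585), the first call being lost without vector replicate 1 or 3 or C/EBPβ replicate 2 or 3 (adjusted p-values of up to 0.152). Me1, for malic enzyme, which supplies NADPH to fatty acid synthesis, rose 1.85-fold in C/EBPε (adjusted p = 0.0160), a call lost without vector replicate 1 or 3 or C/EBPε replicate 2 (adjusted p-values from 0.0624 to 0.0929).

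The partners of Abcd2 in peroxisomal fatty acid handling were 10 tested genes, of which 2 were called higher in C/EBPα, 1 in C/EBPβ and 2 in C/EBPε, where 7.46%, 5.34% and 9.89% of all genes were. Scp2, for a sterol carrier and peroxisomal thiolase, rose 1.76-fold in C/EBPα (adjusted p = 0.000302). Abcd3, for another peroxisomal transporter, rose 1.87-fold in C/EBPε (adjusted p = 0.000841). Hsd17b4, for an enzyme of peroxisomal β-oxidation, rose 1.71-fold in C/EBPα, 1.80-fold in C/EBPβ and 2.08-fold in C/EBPε (adjusted p = 0.0186, 0.0163 and 0.00233). Its C/EBPα call was lost without vector replicate 1 or 3 or C/EBPα replicate 2, and its C/EBPβ call without vector replicate 1 or 3 or C/EBPβ replicate 2 (adjusted p-values from 0.0554 to 0.0833).

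Of 7 tested genes of adipokines and adiponectin receptors, Nampt alone was called, in C/EBPα (1.58-fold, adjusted p = 0.0323). The call was lost without vector replicate 2 or 3 or any C/EBPα array (adjusted p-values from 0.0660 to 0.109). Of 3 tested genes of insulin response, Pdk4, a kinase gene that restrains glucose oxidation, was lower in C/EBPα (log2 -0.82, adjusted p = 0.0437). It was lost on leaving out vector replicate 1 or 2, C/EBPα replicate 1 or 2, any C/EBPβ array, C/EBPδ replicate 1 or 2, or C/EBPε replicate 2 or 3 (adjusted p-values from 0.0501 to 0.220).

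**Figure D5:**
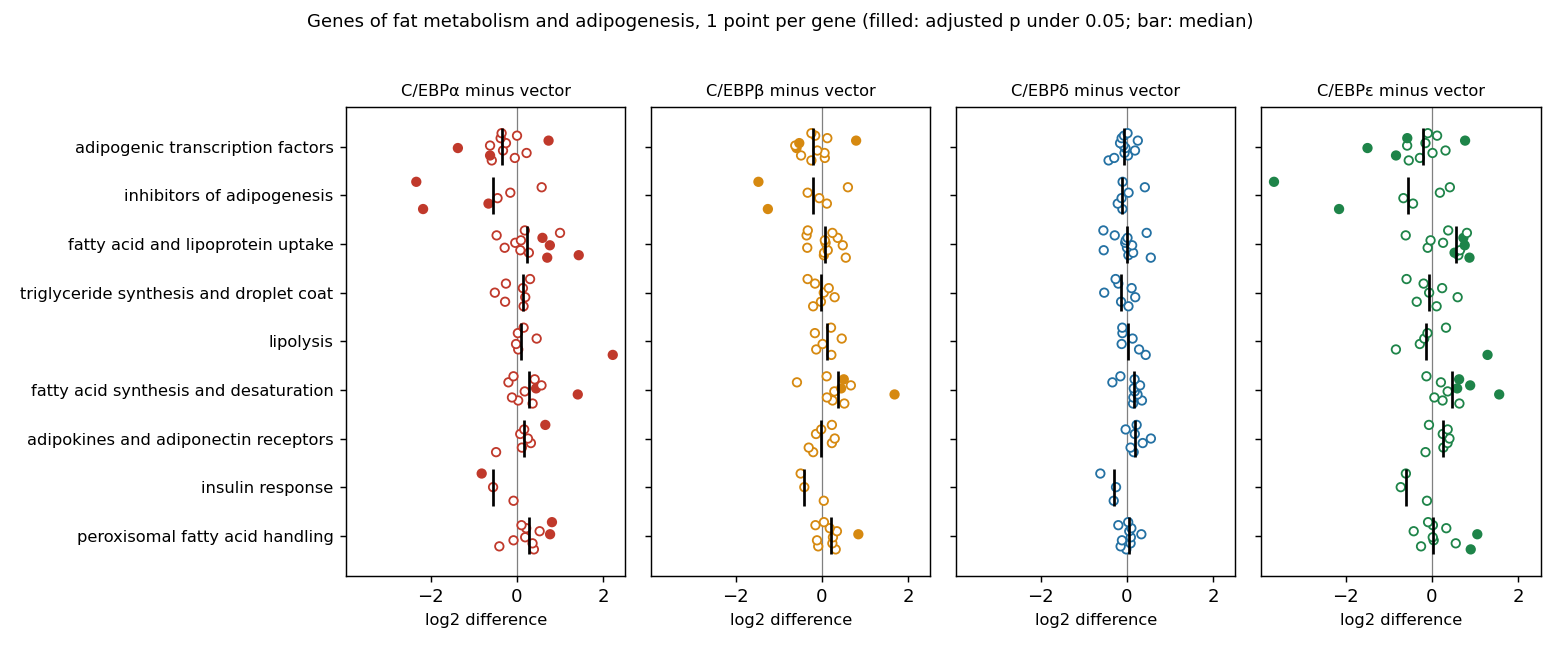
Log2 difference from vector of each tested gene in 9 lists of fat metabolism and fat cell formation, with 1 panel per factor on a shared axis. Points are genes, filled where the adjusted p is under 0.05, and bars are list medians. No point is filled in the C/EBPδ panel, and Abhd5 is the filled lipolysis gene in C/EBPα (2.23) and C/EBPε.

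Lpl is also made by macrophages, and markers of that cell type were read beside it. All 14 listed had a probe set and 6 exceeded the filter: Csf1r, Cd68, Cd14, Lyz2, Tyrobp and Laptm5. Csf1r (3705 to 6539 units) and Cd14 (2287 to 7677 units) lay above it on all 15 arrays. Marco lay under the floor on 14 of 15 arrays, Fcer1g on 13, Mrc1 on 11, Itgam on 10, Ptprc on 9, Adgre1 on 7 and Fcgr3 on 1. Msr1 (418 to 1225 units) lay above the floor on all arrays. The summed signal of all 14 is weighted to bright markers such as Csf1r and Cd14. It was 16430 to 17392 units in C/EBPα, 12763 to 16367 in C/EBPβ and 14249 to 15982 in C/EBPδ. In C/EBPε it was 18014 to 20238, against 14983 to 17501 in vector. In C/EBPα the lysozyme gene Lyz2 rose 3.69-fold, having been tested only through the C/EBPα arrays, where it was high, and the lysosomal gene Cd68 fell by 2.02 on the log2 scale. Cd68 also fell in C/EBPβ and C/EBPε, and Cd14, a receptor gene of endotoxin, rose 2.51-fold in C/EBPε. All samples were labelled NIH 3T3, a fibroblast line, and a part of macrophages in the Lpl rise was not tested. Of 8 endothelial markers 7 had a probe set, and Kdr alone exceeded the filter and was not called in any group. The summed signal of fat cell markers, mostly Lep, was 6312 to 7439 units in C/EBPα, 5555 to 6130 in C/EBPβ, 5557 to 5893 in C/EBPδ and 7170 to 8132 in C/EBPε, against 5483 to 6285 in vector. Lep itself was not called in any group. Among the fat cell markers Cidec lay under the floor on 14 of the 15 arrays, Retn on 13, Cd36 on 11, Adipoq on 6 and Fabp4 on 4. Lipe (243 to 1033 units) and Slc2a4 (276 to 1401 units), like Lep, lay above the floor on all arrays. In bulk RNA, more cells making a transcript and more transcript in each cell cannot be told apart.

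The genes most like Lpl and Pparg were those with the highest Pearson correlation of log2 signal over the 15 arrays. The 15 points share the groups, and the C/EBPα arrays set most of the range, so the values are descriptive. Closest to Lpl were Cd1d1 (r = 0.972), Hp (0.961), Mgst1 (0.957), Kng1 (0.924) and its fellow member Abcd2 (0.918). Hp, the haptoglobin gene, averaged 38749 units in C/EBPα, 3737 in C/EBPβ, 5148 in C/EBPδ and 2534 in C/EBPε, against 1383 in vector, the same order of groups as Lpl except that C/EBPβ stood above C/EBPε. Closest to Pparg were Hmgn5 (r = 0.971), Hp (0.949), Tgm3 (0.949), Scp2 (0.939) and Cd1d1 (0.938). Hmgn5, a nucleosome-binding protein gene, averaged 10196 units in C/EBPα, 3649 in C/EBPβ, 4921 in C/EBPδ and 3606 in C/EBPε, against 3460 in vector, with a call in C/EBPα alone among the comparisons with vector.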

How the data were processed

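RNA of 15 NIH 3T3 samples was hybridised to MG_74Av2 arrays, 3 per group. The deposited values are linear intensities, 1 for each probe set and array, which the authors obtained with Microarray Suite 5.0, per the labels. Their 2% trimmed means lay between 2501.12 and 2501.39 and their medians ran from 992.25 to 1149.70, so arrays had been scaled before deposit. No detection calls or counts come with them, and precision is set by the number of arrays.

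Leaving out 66 controls of 12488 probe sets gave 12422. The platform annotation gave 1 gene for 10833 of the rest, several for 396 and none for 1193. Each array was scaled to the mean of the array medians (factors 0.946 to 1.098), raised to the floor and logged. All groups entered 1 fit (limma 3.58.1, R 4.3.3; lmFit, eBayes with a trend), with Benjamini-Hochberg adjustment per contrast over all 6963 tested probe sets and two-sided tests. On simulated data with these probe sets and a C/EBPα minus vector contrast, the fit called 30.8% of 1.5-fold, 74.0% of 2-fold and 91.2% of 3-fold changes, and 0.104% of unchanged probe sets. Fewer probe sets were changed there than were called in the real contrast, and the noise was independent between arrays. These shares therefore hold for that setting only.

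The members and lists were chosen with earlier results of these data known. All member probe sets are reported. From a list, up to 4 genes are named: those called against vector in most contrasts, then by size of the C/EBPα difference, or where none was called up to 2 of lowest unadjusted p. For Lpl and Pparg the 5 most correlated genes are named. Promoter windows were matched by symbol to RefSeq tables. Alternatives were other scalings, floors, filters and variance models, fits without some arrays or without the other groups, a block for the replicate number, any or the second brightest probe set of a gene (the second added after seeing the data), and the labels' univariate F-test.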

Additional observations from a re-analysis of the deposited data

How the results depend on the processing

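In C/EBPα the 4 member calls held with each array left out in turn (4 to 4 calls). Fits with arrays left out kept the probe sets that were tested with all arrays. Pparg and Abcd2 had passed the filter through the C/EBPα arrays alone. They stayed tested by that rule when a C/EBPα array was left out, so these fits do not check their passing of the filter. With the filter at the 75th percentile 2 were made, Pparg and Abcd2 being left untested, and under that filter 2 members were called between factors and 2 in the F-test. With no floor Pparg was lost (adjusted p = 0.0619). In C/EBPβ the 2 member calls became 0 when the second brightest probe sets of Lpl and Scd1 were read, 0 with only the 2 groups, and 1 with the floor at the 40th percentile, with no filter and without the 5 arrays numbered 1 (1 to 2 with 1 array left out). In C/EBPδ the count of 1 became 0 with the second brightest probe sets and 2 without the trend. In C/EBPε the count of 3 became 1 with the floor at the 40th percentile (2 to 3 with 1 array left out). Scd1 was not called in the univariate F-test either (adjusted p = 0.197). Over all probe sets the calls were 997 in C/EBPα (743 to 1028 with 1 array left out), 648 in C/EBPβ (372 to 695), 25 in C/EBPδ (13 to 29) and 1134 in C/EBPε (750 to 1153). Without the arrays numbered 1, and so with fewer arrays, they were 654, 339, 11 and 693. Array weights gave 1576 in C/EBPβ, 74 in C/EBPδ and 1730 in C/EBPε. Quantile normalization gave 39 in C/EBPδ, and fits of only the 2 groups gave 15 in C/EBPδ and 690 in C/EBPε.

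With the replicate number as a block the counts were 1440, 1099, 44 and 1676 in C/EBPα, C/EBPβ, C/EBPδ and C/EBPε, and no member call was lost. Member calls under the block were 5 in C/EBPα and 4 in C/EBPε, since Scd1 was called there too (adjusted p = 0.00779 and 0.0136, and 0.00723 and 0.0171 by its second probe set), and 5 between factors and 5 in the F-test. Same-numbered arrays of different groups deviated from their group means with correlations from -0.069 to 0.439, beside -0.428 to 0.245 for other pairs. These ran from 0.225 to 0.439 among arrays numbered 1, 0.019 to 0.428 for number 2 and -0.069 to 0.124 for number 3. Of 15 arrays, 13 correlated best with their own number, a hint from the data and not from the design. Without the arrays numbered 1, the member calls lost were Scd1 in C/EBPβ (adjusted p = 0.0643), Abcd2 in C/EBPε (0.193), Lpl in C/EBPβ against C/EBPδ (0.203), Abcd2 in C/EBPα against C/EBPβ (0.0768) and C/EBPε (0.162), and Pparg in C/EBPα against C/EBPβ (0.0523), C/EBPδ (0.0812) and C/EBPε (0.0950). Of the named list genes it also lost Klf4 in C/EBPβ (0.0660), Lmf1 in C/EBPα (0.0953) and C/EBPε (0.0961), Acsl4 (0.193), Scarb1 (0.0682) and Pdk4 (0.332) in C/EBPα, Fasn in C/EBPα (0.117), C/EBPβ (0.167) and C/EBPε (0.0662), Scd2 in C/EBPβ (0.113), Me1 in C/EBPε (0.0917), Hsd17b4 in C/EBPα (0.0896) and C/EBPβ (0.0829), and Thy1 in C/EBPα (0.0700). With no floor these 3 Pparg differences and that of Abcd2 between C/EBPα and C/EBPε were lost too (adjusted p = 0.283, 0.365, 0.108 and 0.0753). Signs turned in 12 cases, none of them called: Lpl 160083_at in C/EBPβ (log2 -0.389 with array weights, -0.0749 without the arrays numbered 1, -0.213 to 0.267 with 1 array left out), Scd1 94057_g_at in C/EBPδ (-0.303 to 0.167 with 1 array left out), Dgat1 in C/EBPδ (-0.0267 to 0.196), and Abcd2 in C/EBPβ against C/EBPδ (0.251 without the arrays numbered 1, -0.374 to 0.107 with 1 array left out). Of the other single-gene values 3256 kept their direction and call, 176 lost a call and 22 gained one. The causes were not tested. Dim signals limit Pparg and Cd36, whose differences near the floor are bounds or unmeasured. They also limit Fabp4, Adipoq and Lipe, which did not reach the filter. The sizes of the Lpl and Abcd2 differences from vector depend on the floor.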

Other observations

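Of 10 tested fibroblast markers, 4 rose in C/EBPβ (5.34% of all genes did) and 3 in C/EBPε (9.89%). In C/EBPα 1 rose and 1 fell, near the 7.46% and 7.32% of all genes. In C/EBPδ none was called (limma), with 1 higher and 1 lower at an unadjusted p under 0.05, beside 229 higher and 115 lower of all 5338 tested genes. Lox, which encodes the enzyme that cross-links collagen, averaged 17993 ± 491 units in C/EBPα, 19963 ± 3758 in C/EBPβ and 19126 ± 4310 in C/EBPε, against 9558 ± 1315 in vector (SD, n = 3 each). It rose 1.89-fold in C/EBPα (adjusted p = 0.00168), 2.08-fold in C/EBPβ (adjusted p = 0.00102) and 1.98-fold in C/EBPε (adjusted p = 0.00111). Col3a1, for a fibrillar collagen, rose 2.24-fold in C/EBPβ (adjusted p = 0.00159) and 2.19-fold in C/EBPε (adjusted p = 0.00116), and read 988 ± 181 in C/EBPα against 1040 ± 196 in vector. Thy1, a surface glycoprotein gene of fibroblasts, fell in C/EBPα (log2 -0.66, adjusted p = 0.0123), and was no longer called without C/EBPα replicate 1 (adjusted p = 0.0515) or vector replicate 2 (0.0653). Pdgfrb, a growth factor receptor gene, rose 2.04-fold in C/EBPβ (adjusted p = 0.0310), a call lost without vector replicate 2 or 3 or C/EBPβ replicate 2 or 3 (adjusted p-values from 0.0534 to 0.152). The summed signal of the fibroblast markers is weighted to bright ones such as S100a4 (34215 to 57819 units over all arrays). It was 107782 to 132758 units in C/EBPα, 149736 to 211974 in C/EBPβ and 123020 to 124790 in C/EBPδ. In C/EBPε it was 129442 to 169099, against 117568 to 153845 in vector.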
